A study of Mus musculus with 10 samples.

Results

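Collagens are the main structural proteins of the lung matrix, and the chains described here are all the collagen chains that the expression panel could count in mouse lungs given house dust mite extract (HDM). They were taken as every target whose gene symbol is Col, a type number, the letter a and a chain number, with at least 30 counts summed over the 10 libraries. This gave 33 of the 44 collagen chains among 23930 targets. By the assembly each chain forms there were 9 of 11 fibrillar chains, 5 of 6 basement membrane (type IV) chains, 5 of 6 type VI chains and 14 of 21 others. The 11 chains left out had 1 to 28 counts in all libraries together and 4 of them had 5 or fewer. The lowest chain kept, Col28a1, had 38 counts and the highest left out, Col26a1, had 28.

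Each collagen molecule is a triple helix of 3 alpha chains, which are made in the endoplasmic reticulum, hydroxylated, folded and secreted. Fibrillar chains (types I, III, V, XI, XXIV and XXVII) build the tensile fibrils of airway and vessel walls and of the alveolar interstitium. Type IV chains form the network of basement membranes, which in the alveolus lies between the epithelium and the capillary. Type VI chains form beaded microfilaments around cells and fibrils, and the other types join fibrils together, anchor membranes or span the cell membrane. Deposition of fibrillar collagen under the airway epithelium is part of the airway remodelling known from asthma.

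Lungs of 10 wildtype female BALB/c mice were measured. The methods give an age of 8 to 9 weeks for the mice as purchased, before acclimatization and the instillations, so the lungs were taken at a later age. The PBS group (n = 4) received PBS into the nose. The HDM group (n = 3) received extract of Dermatophagoides pteronyssinus in PBS by the same route, 2 times a week for 3 weeks. The HDM + nafamostat group (n = 3) received in addition the serine protease inhibitor nafamostat into the peritoneum, 30 min before each instillation, at 20 mg/kg with 3% acetic acid as vehicle. The labels do not say whether PBS and HDM mice received that vehicle. The methods have nafamostat or vehicle given before instillations of PBS or HDM, while the figure legends describe control mice as given PBS alone. The methods also list HDM mice and HDM mice given vehicle as separate groups, and the labels name only HDM. The labels give the HDM dose as 10 mg in 30 ml, where the methods give 10 µg in 30 µl. The figure legends of the study name 6 weeks. Each library is 1 mouse, cut from the top of the left lobe 24 h after the last instillation, and whole tissue stands for all its cells.

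Libraries held 5901279 to 7353792 counts in PBS, 7105946 to 9354416 in HDM and 8053532 to 9666354 in HDM + nafamostat, and the 33 collagen chains took 0.187% to 0.328% of them. All 6 lung markers examined (Sftpc, Sftpb, Ager, Scgb1a1, Foxj1 and Pecam1) were counted in every library. PBS replicate 4 was the lowest PBS library for 24 of the 33 chains, and HDM + nafamostat replicate 1 the lowest of its group for 24. HDM replicate 3 had the most counts on 1057 olfactory receptor genes, 1647 CPM (the counts-per-million scale), against 28.3 to 619 CPM in the other 9 libraries. Tissue came from separate experiments that the labels do not assign to mice, so experiment and group cannot be told apart. All levels below are in CPM, with library totals scaled between samples. Each gene was read by 1 amplicon, and amplicons differ in efficiency, so levels are compared within a gene and not between genes.

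HDM against PBS asks how collagen transcripts differed in mice given the allergen. If HDM mice received vehicle and PBS mice did not, injection and vehicle differed too and cannot be told apart from the allergen. In HDM lungs 3 of 5 type VI chains and 3 of 9 fibrillar chains were higher, all 5 type IV chains tested were lower, and the type I chains did not pass the test. Of 31 chains tested, 6 rose (19.4%) and 8 fell (25.8%) at an adjusted p under 0.05 with edgeR's quasi-likelihood test, while 17 did not pass. Among all 14608 targets tested, 15.3% rose and 14.2% fell by the same rule. By at least 2-fold, Col3a1, Col6a5 and Col24a1 rose and Col4a3, Col4a4 and Col12a1 fell, against 7.28% and 4.1% of all targets. The median log2 fold change of the chains was −0.28, beside 0.02 for all targets. The HDM and PBS libraries did not overlap for 7 chains that were higher and 7 that were lower in HDM, beside 19.3% and 17.2% of all targets. Without HDM replicate 3, 13 of the 14 calls remained, all but Col6a1. Without HDM replicate 1 or HDM replicate 2, 12 remained, and Col4a1 was lost as well as Col6a1. These fits gave 1651 to 1866 of all targets higher and 1434 to 1706 lower. Without PBS replicate 4, 5 chains rose and 11 fell, where Col6a1 was lost and Col5a1, Col14a1 and Col18a1 came in. Over all targets 2521 then rose and 2347 fell, against 2242 and 2069 with all libraries. Col17a1 and Col28a1 had too few counts in these 7 libraries to be tested.

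**Figure D1:**
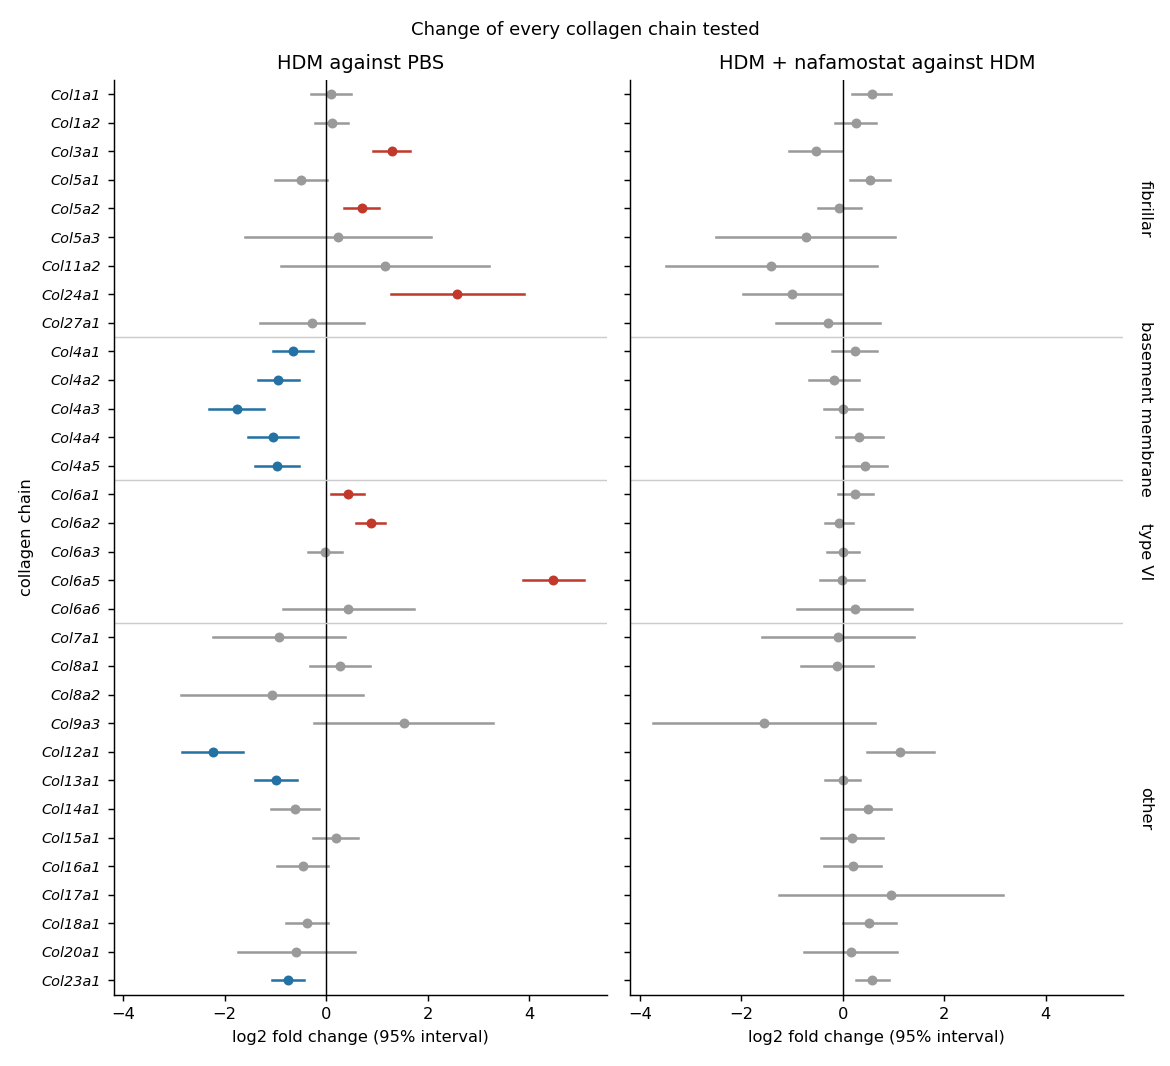
Log2 fold change of each collagen chain with its 95% interval, for HDM against PBS on the left and HDM + nafamostat against HDM on the right, grouped by assembly. Red marks chains that rose, blue chains that fell and grey chains that did not pass an adjusted p under 0.05. On the left all 5 basement membrane chains lie below 0 and Col6a5 stands at 4.48, and on the right no chain is coloured.

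Col6a5 encodes the alpha 5 chain of type VI collagen, which can take the place of the alpha 3 chain in the assembly. Its level was 1.80, 2.47, 3.07 and 1.10 CPM in PBS replicates 1 to 4. It was 34.4, 62.5 and 50.6 CPM in HDM and 44.1, 42.7 and 58.9 CPM in HDM + nafamostat. Every library given HDM, with or without nafamostat, lay more than 10 times above every PBS library. The log2 fold change was 4.48 (SE 0.28, adjusted p = 3.2e-08, edgeR) for HDM against PBS and 4.48 (SE 0.26, adjusted p = 1.31e-09, edgeR) for HDM + nafamostat against PBS. Between HDM + nafamostat and HDM it was −0.01, with a 95% interval of −0.45 to 0.43.

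The promoter windows of 4 chains follow, for the 2 chains with the smallest p that rose (Col6a5 and Col3a1) and for 1 chain of each type IV pair described below (Col4a2 and Col4a4). Each runs from 250 bases before to 50 bases after a transcript start in RefSeq on GRCm38.p6, read 5′ to 3′ on the gene's strand, and 27 of the 33 chains had such a window. For Col4a4 and Col6a5 that start lies inside the annotated gene, downstream of its outermost base. Capitals mark matches on either strand to the TATA box, the CCAAT box and the GC box, whose letters are TATAAA, those of its name and GGGCGG. A match on the other strand shows as the reverse complement, and no matches overlapped.
Col6a5, chr9:105960594-105960893, minus strand: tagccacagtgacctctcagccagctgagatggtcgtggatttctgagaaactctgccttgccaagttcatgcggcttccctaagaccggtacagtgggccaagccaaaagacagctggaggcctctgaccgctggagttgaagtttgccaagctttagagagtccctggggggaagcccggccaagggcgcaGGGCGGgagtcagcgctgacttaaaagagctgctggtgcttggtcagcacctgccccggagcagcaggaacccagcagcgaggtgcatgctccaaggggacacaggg
Col3a1, chr1:45311288-45311587, plus strand: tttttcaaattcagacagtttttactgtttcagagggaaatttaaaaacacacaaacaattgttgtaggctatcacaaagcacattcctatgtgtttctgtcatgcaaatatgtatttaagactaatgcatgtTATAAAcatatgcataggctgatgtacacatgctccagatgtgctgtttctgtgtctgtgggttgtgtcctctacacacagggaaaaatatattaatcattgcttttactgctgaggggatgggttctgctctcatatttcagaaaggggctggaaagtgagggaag
Col4a2, chr8:11312555-11312854, plus strand: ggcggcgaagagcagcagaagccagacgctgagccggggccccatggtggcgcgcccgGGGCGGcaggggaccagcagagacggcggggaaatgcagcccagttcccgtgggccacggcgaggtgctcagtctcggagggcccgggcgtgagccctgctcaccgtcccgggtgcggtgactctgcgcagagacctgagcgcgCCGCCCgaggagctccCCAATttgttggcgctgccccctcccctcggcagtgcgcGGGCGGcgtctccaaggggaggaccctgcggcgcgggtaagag
Col4a4, chr1:82586800-82587099, minus strand: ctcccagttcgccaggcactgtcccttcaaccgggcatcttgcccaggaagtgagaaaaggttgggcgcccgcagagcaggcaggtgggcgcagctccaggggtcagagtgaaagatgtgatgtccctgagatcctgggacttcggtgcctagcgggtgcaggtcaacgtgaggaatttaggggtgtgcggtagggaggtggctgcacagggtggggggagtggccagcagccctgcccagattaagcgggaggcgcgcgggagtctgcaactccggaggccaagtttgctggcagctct
A GC box stood in a window of 17 of the 27 collagen chains and in 35.7% of 32851 single windows of all genes. For the CCAAT box these were 9 chains and 37.4%, and for the TATA box 4 chains and 13.6%. The chains are counted by gene and the percentages by window. A match is a run of letters and no measure of binding.

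Among the other type VI chains, Col6a2 rose in HDM. Its level was 80.7, 81.6, 66.7 and 65.4 CPM in PBS, 128, 135 and 147 CPM in HDM and 124, 123 and 144 CPM in HDM + nafamostat. No HDM library of either kind overlapped PBS, and the log2 fold change was 0.88 (SE 0.13, adjusted p = 0.000164, edgeR) for HDM against PBS. Col6a1 was at 315, 339, 235 and 236 CPM in PBS and at 389.5, 356 and 396 CPM in HDM, with 388, 390 and 576 CPM in HDM + nafamostat. Its HDM call was near the threshold (log2 fold change 0.42, SE 0.15, adjusted p = 0.0464, edgeR). It ended when any of PBS replicates 3 and 4 or HDM replicates 1, 2 and 3 was left out (log2 fold change 0.35 to 0.47, adjusted p = 0.0744 to 0.125, edgeR). Col6a3, the third main chain of the type VI molecule, was at 67.7, 64.5, 63.1 and 47.6 CPM in PBS, at 54.3, 56.3 and 70.5 CPM in HDM and at 60.6, 54.2 and 66.6 CPM in HDM + nafamostat. The 3 groups overlapped, and the 95% interval of its log2 fold change in HDM was −0.36 to 0.30. Col6a6 did not pass, with 0.871 to 3.15 CPM in PBS and 1.72 to 2.69 CPM in HDM.

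**Figure D2:**
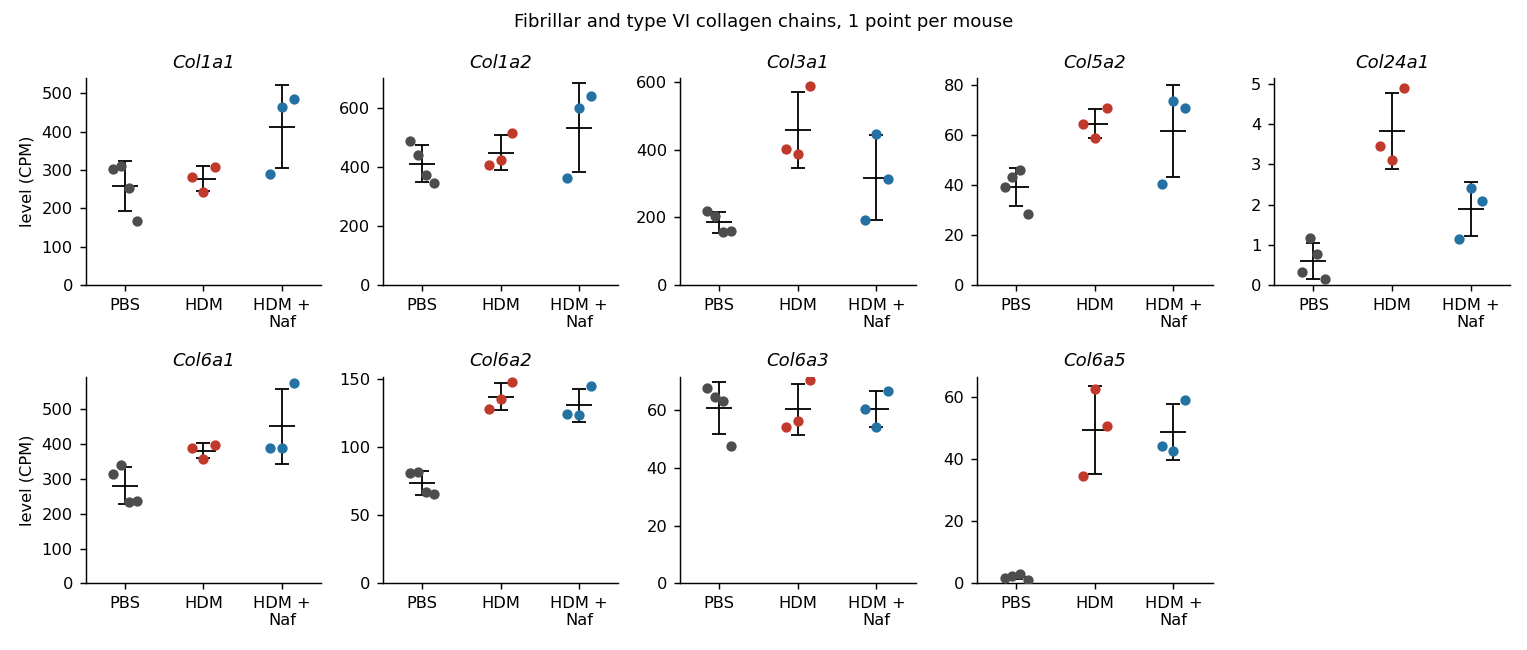
Level in CPM of 5 fibrillar and 4 type VI chains, with 1 point per mouse and the mean with its SD as bars, each axis starting at 0. Col3a1, Col5a2, Col24a1, Col6a2 and Col6a5 and also Col6a1 show no overlap between PBS and HDM, while Col1a1, Col1a2 and Col6a3 overlap. In HDM + nafamostat, replicate 1 is the lowest of its group for all 5 fibrillar chains.

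Of the 9 fibrillar chains, 3 rose in HDM (33.3%, beside 15.3% of all targets), none fell and 6 did not pass, with a median log2 fold change of 0.24. Col3a1 forms type III collagen, which mixes with type I in extensible tissue. It was at 219, 203, 158 and 160.1 CPM in PBS and at 401, 388 and 589 CPM in HDM. Every HDM library exceeded every PBS library, by a log2 fold change of 1.29 (SE 0.17, adjusted p = 4.8e-05, edgeR). Col5a2, a type V chain that takes part in starting fibrils, was at 39.2, 43.1, 45.7 and 28.5 CPM in PBS and at 64.1, 58.8 and 70.5 CPM in HDM. Its groups did not overlap either (log2 fold change 0.70, SE 0.16, adjusted p = 0.00461, edgeR). Its partner Col5a1 did not pass, with a log2 fold change of −0.50 (95% interval −1.02 to 0.02).

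Col24a1, a minor fibrillar chain known from bone, was sparse. It had 2, 8, 6 and 1 counts in PBS and 30, 22 and 37 counts in HDM, and 9, 22 and 20 counts in HDM + nafamostat. All HDM libraries were above all PBS libraries, with a log2 fold change of 2.59 (SE 0.61, adjusted p = 0.00506, edgeR). Markers of cartilage, where minor fibrillar chains are also made, were near the limit of detection, with a summed level over 8 genes of 0.789 to 2.95 CPM in PBS, 1.72 to 3.53 in HDM and 1.27 to 3.74 in HDM + nafamostat. Matn1 and Ucma of that list had no counts in PBS.

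The type I chains, which make the most abundant collagen of the body, gave no call in HDM. Col1a1 was at 304, 310.2, 253 and 166 CPM in PBS and at 282, 244 and 308 CPM in HDM (log2 fold change 0.09, 95% interval −0.31 to 0.48). Col1a2 was at 486, 440.1, 374 and 346 CPM in PBS and at 405, 423 and 516 CPM in HDM (log2 fold change 0.11, 95% interval −0.21 to 0.42). HDM libraries lay inside the PBS range for Col1a1 and overlapped it for Col1a2, and both intervals exclude a 2-fold change in either direction. Col5a3, Col11a2 and Col27a1 did not pass, and their levels stayed under 6 CPM in all libraries. A count of 3 in a library corresponds to 0.315 to 0.490 CPM on the scaled totals, so that changes of the sparse chains were not detectable at this depth unless large.

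All 5 type IV chains tested fell in HDM, with log2 fold changes of −1.77 to −0.66 and a median of −0.97. The alpha 3, alpha 4 and alpha 5 chains form one network, known from alveolar and kidney basement membranes, and alpha 1 with alpha 2 forms the network found in most basement membranes. Col4a3 changed most among them, with 120.3, 129, 147 and 54.1 CPM in PBS, 33.0, 33.8 and 34.0 CPM in HDM and 25.9, 40.9 and 34.0 CPM in HDM + nafamostat. PBS replicate 4 was far below the other PBS libraries but above all libraries given HDM. The log2 fold change was −1.77 (SE 0.26, adjusted p = 0.00011, edgeR) for HDM against PBS, and 0.00 (95% interval −0.37 to 0.38) for HDM + nafamostat against HDM.

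Col4a4 was at 36.4, 52.1, 59.0 and 29.2 CPM in PBS and at 17.5, 21.2 and 26.4 CPM in HDM. Its HDM libraries lay under all PBS libraries (log2 fold change −1.05, SE 0.23, adjusted p = 0.00313, edgeR). Col4a5 was at 26.2, 26.6, 22.5 and 16.7 CPM in PBS and at 12.8, 11.03 and 11.7 CPM in HDM, again without overlap (log2 fold change −0.97, SE 0.20, adjusted p = 0.00191, edgeR). Col4a2 was at 162, 188, 229.6 and 119.5 CPM in PBS and at 78.4, 90.3 and 108 CPM in HDM, without overlap (log2 fold change −0.94, SE 0.19, adjusted p = 0.00184, edgeR). The change of Col4a1 was smaller. It was at 580.1, 676, 556 and 383 CPM in PBS and at 304, 329 and 425 CPM in HDM, where PBS replicate 4 overlapped HDM replicate 3 (log2 fold change −0.66, SE 0.18, adjusted p = 0.0132, edgeR). Without HDM replicate 1 or HDM replicate 2 this call ended (log2 fold change −0.56 and −0.61, adjusted p = 0.0657 and 0.0579, edgeR). Col4a6, the sixth chain, had 24 counts in all and was not tested.

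The type IV genes lie in head-to-head pairs. On chromosome 8, Col4a1 (11198423 to 11312889, minus strand) and Col4a2 (11312805 to 11449287, plus strand) overlap by 85 bases at their annotated starts. On chromosome 1, Col4a4 (82448419 to 82587034, minus strand) and Col4a3 (82586921 to 82722059, plus strand) overlap by 114 bases. The positions and overlaps here use the outermost annotated bases. The Col4a4 window printed above holds the first annotated base of Col4a3, and the Col4a2 window lies inside the annotated Col4a1 gene. The counting was not stated to use strand, and the place of each amplicon in its gene is not given in the sources used here. The Col4a2 window held a CCAAT box 32 bases before the start and GC boxes 192 and 48 bases before it and 7 bases after it, while the Col4a4 window held none of these motifs.

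**Figure D3:**
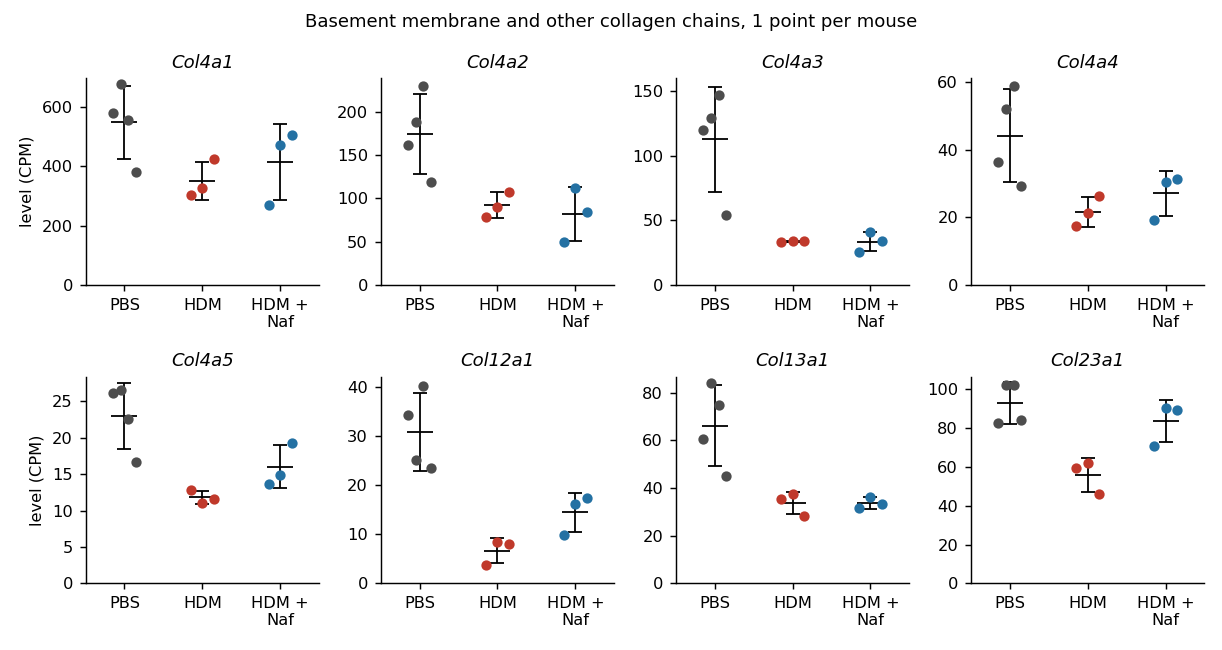
Level in CPM of the 5 basement membrane chains and of Col12a1, Col13a1 and Col23a1, with 1 point per mouse and the mean with its SD as bars, each axis starting at 0. HDM lies under PBS without overlap in 7 panels and overlaps in that of Col4a1. HDM + nafamostat lies above HDM without overlap for Col4a5, Col12a1 and Col23a1.

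Of the 12 other chains tested, 3 fell in HDM (25%, beside 14.2% of all targets) and 9 did not pass. Col12a1 encodes type XII collagen, which binds along type I fibrils and links them to the surrounding matrix. It was at 34.3, 25.1, 40.2 and 23.5 CPM in PBS, at 3.70, 8.34 and 7.95 CPM in HDM and at 9.91, 16.2 and 17.3 CPM in HDM + nafamostat. The 3 groups did not overlap, with HDM lowest and HDM + nafamostat between HDM and PBS. The log2 fold change was −2.24 (SE 0.28, adjusted p = 3.16e-05, edgeR) for HDM against PBS, the largest fall among the chains tested, and −1.09 (SE 0.23, adjusted p = 0.0038, edgeR) for HDM + nafamostat against PBS.

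Col13a1 and Col23a1 encode transmembrane collagens, which sit in the cell surface and can be shed. Col13a1 was at 60.8, 83.9, 75.0 and 45.3 CPM in PBS, 35.5, 37.3 and 28.5 CPM in HDM and 31.5, 36.3 and 33.3 CPM in HDM + nafamostat. Both HDM groups lay under PBS, and the HDM change was −0.99 on the log2 scale (SE 0.20, adjusted p = 0.00145, edgeR). Col23a1 was at 82.7, 102, 102 and 84.4 CPM in PBS, at 59.2, 62.1 and 46.1 CPM in HDM and at 70.9, 90.5 and 89.1 CPM in HDM + nafamostat. HDM lay under both other groups, with a log2 fold change from PBS of −0.75 (SE 0.15, adjusted p = 0.00153, edgeR), while HDM + nafamostat overlapped PBS. Col14a1, a relative of Col12a1 on fibrils, was just outside the threshold with −0.61 (SE 0.22, adjusted p = 0.0517, edgeR). Its call depended on the settings. It passed with library totals only, with no filter on low counts, with edgeR's expression filter and with a replicate block (adjusted p = 0.0163 to 0.0442, edgeR) as well as without PBS replicate 4, and did not pass with DESeq2. Col15a1 and Col18a1, the basement membrane zone collagens that give rise to restin and endostatin, gave 0.19 and −0.38 and did not pass.

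HDM + nafamostat against HDM asks whether these transcripts differed with the inhibitor in allergen-treated mice. If the HDM mice received no vehicle, injection and vehicle differed too and cannot be told apart from the inhibitor. No collagen chain passed among 31 tested with edgeR, where 0.951% of all 14413 targets rose and 1.97% fell (137 and 284 targets, or 237 and 222 with scaling by library totals only). These counts over all targets depended on single libraries. Without HDM + nafamostat replicate 3 only 1 target rose and 14 fell, and without HDM + nafamostat replicate 2 these were 259 and 453. Without HDM replicate 1 there were 12 and 116, without HDM replicate 3 there were 23 and 140, without HDM replicate 2 there were 87 and 216, and without HDM + nafamostat replicate 1 there were 107 and 257. At an unadjusted p under 0.05 there were 7 chains, and 21.4% of all targets. Of these 7, Col1a1, Col5a1, Col12a1, Col14a1 and Col23a1 were higher and Col3a1 and Col24a1 lower with nafamostat. The median log2 fold change over the 31 chains was 0.15, beside −0.01 for all targets, and libraries did not overlap for 4 chains that were higher and 2 that were lower, beside 12.7% and 12.8% of all targets. Col8a2 and Col28a1 were not tested.

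Tests differed on 3 of these chains. Col12a1 had a log2 fold change of 1.13 (95% interval 0.47 to 1.80, adjusted p = 0.0638, edgeR), Col23a1 of 0.58 (0.25 to 0.91, adjusted p = 0.058, edgeR) and Col1a1 of 0.57 (0.19 to 0.96, adjusted p = 0.0905, edgeR). With DESeq2 all 3 passed (adjusted p = 0.0358, 0.0182 and 0.024). Without a filter on low counts the same 3 and Col3a1 passed, and with edgeR's own expression filter Col12a1 and Col23a1 did. Leaving out HDM + nafamostat replicate 1 gave 4 chains that rose, namely Col1a1, Col12a1, Col18a1 and Col23a1, with log2 fold changes of 0.77, 1.33 and 0.68 for the first, second and last (adjusted p = 0.0233, 0.0453 and 0.0445, edgeR). Leaving out HDM + nafamostat replicate 2 gave a fall of Col3a1 alone (log2 fold change −0.86, adjusted p = 0.0452, edgeR).

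For Col3a1 the libraries of HDM + nafamostat were spread widely, at 193, 446 and 314 CPM. Replicate 1 fell inside the PBS range and replicate 2 inside the HDM range, and the log2 fold change from HDM was −0.53 (95% interval −1.06 to −0.01, adjusted p = 0.227, edgeR). Col1a1 was at 289, 465 and 485 CPM in HDM + nafamostat, where replicates 2 and 3 exceeded all libraries of the other groups. Col1a2 was at 362, 599 and 639 CPM, in the same order, with a log2 fold change from HDM of 0.25 (95% interval −0.16 to 0.66). Col24a1 was lower without overlap, at 1.14 to 2.42 CPM against 3.11 to 4.90 CPM in HDM (log2 fold change −1.01, 95% interval −1.97 to −0.04, adjusted p = 0.217, edgeR). Col5a2 was at 40.2, 73.5 and 70.6 CPM in HDM + nafamostat, where replicate 1 lay inside the PBS range and the other two above the HDM range.

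Among type IV chains in HDM + nafamostat, Col4a1 was at 269, 471 and 505 CPM and Col4a2 at 49.4, 112 and 83.8 CPM. Col4a4 was at 19.3, 30.6 and 31.4 CPM and Col4a5 at 13.7, 14.96 and 19.3 CPM. Col4a5 lay above HDM in all 3 libraries, and the other type IV chains overlapped it. For the type IV chains the intervals ran from at lowest −0.66 to at highest 0.87, which excludes a 2-fold change of any of them between HDM and HDM + nafamostat.

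HDM + nafamostat against PBS shares its libraries with the comparisons above, so its values stand beside them and are no separate evidence. Of 31 chains, 6 were higher, beside 8.73% of all 14079 targets, and 5 lower, beside 5.53%. With scaling by library totals only, 4 were higher and 5 lower (1078 and 984 of all targets). The higher chains were Col6a5, Col6a2 (log2 fold change 0.82), Col3a1 (0.78), Col6a1 (0.68), Col1a1 (0.68) and Col5a2 (0.65). The lower chains were Col4a3 (−1.75), Col4a2 (−1.10), Col12a1 (−1.09), Col13a1 (−0.98) and Col4a4 (−0.71). Col6a5, Col6a2, Col4a2, Col4a3, Col12a1 and Col13a1 passed without any single library. The log2 fold change of Col1a1 was 0.54 to 0.66 (adjusted p = 0.0705 to 0.17, edgeR) without PBS replicate 3 or HDM + nafamostat replicate 2 or 3. That of Col3a1 was 0.45 to 0.78 (adjusted p = 0.0573 to 0.178, edgeR) without the same libraries. Col5a2 did not pass without PBS replicate 1, 2 or 4 or HDM + nafamostat replicate 2 or 3 (0.50 to 0.70, adjusted p = 0.0544 to 0.197, edgeR). Col6a1 did not pass without HDM + nafamostat replicate 3 (0.46, adjusted p = 0.127, edgeR). Col4a4 did not pass without PBS replicate 2 or 3 or any HDM + nafamostat library (−0.83 to −0.53, adjusted p = 0.0707 to 0.182, edgeR). The counts of calls were therefore 2 higher without HDM + nafamostat replicate 3 and 3 higher without replicate 2. Counts over all targets moved as well. They were 1229 higher and 779 lower with all libraries, 777 and 421 without replicate 3 and 775 and 436 without replicate 2.

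Ratios of chain counts within a library do not depend on its depth, and their change between groups does not depend on amplicon efficiency. All 10 ratios computed are described, which were chosen after the counts had been seen and are given without a test. The ratio of Col3a1 to Col1a1 was 0.723, 0.655, 0.623 and 0.962 in PBS, 1.42, 1.59 and 1.91 in HDM and 0.666, 0.959 and 0.648 in HDM + nafamostat. All HDM libraries were thus above the other 7, and those with nafamostat were inside the PBS range. Both chains were higher in HDM + nafamostat than in PBS (log2 fold change 0.78 for Col3a1 and 0.68 for Col1a1). The ratio therefore does not give the level of either chain. The ratio of Col5a1 to Col5a2 was 0.575 to 0.926 in PBS, 0.265 to 0.406 in HDM and 0.452 to 0.636 in HDM + nafamostat, where HDM was below both other groups. The ratio of Col4a3 to Col4a4, whose genes start side by side, was 1.85 to 3.30 in PBS, 1.29 to 1.89 in HDM and 1.08 to 1.34 in HDM + nafamostat. The ratio of Col6a5 to Col6a3 was 0.0232 to 0.0487 in PBS, 0.633 to 1.11 in HDM and 0.727 to 0.885 in HDM + nafamostat, and HDM libraries with and without nafamostat overlapped. The ratio of Col4a1 to Col4a2 was 2.42 to 3.60 in PBS, 3.64 to 3.94 in HDM and 4.20 to 6.02 in HDM + nafamostat, so that the 3 groups did not overlap and HDM + nafamostat lay farther from PBS than HDM did. The ratio of Col1a1 to Col1a2 was 0.481 to 0.705 in PBS and 0.575 to 0.696 in HDM, and at 0.759 to 0.798 HDM + nafamostat was above all other libraries. The ratio of Col4a4 to Col4a2 was 0.225 to 0.277 in PBS, 0.223 to 0.244 in HDM and 0.272 to 0.391 in HDM + nafamostat, which lay above HDM and overlapped PBS only at its lowest library. For Col4a3 to Col4a1 (0.141 to 0.265, 0.0801 to 0.109 and 0.0674 to 0.0965) and Col6a3 to Col6a1 (0.190 to 0.269, 0.139 to 0.178 and 0.116 to 0.156) both HDM groups were below PBS and overlapped each other. For Col6a2 to Col6a1 (0.241 to 0.284, 0.329 to 0.379 and 0.251 to 0.320) HDM was above both other groups, and HDM + nafamostat overlapped PBS.

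**Figure D4:**
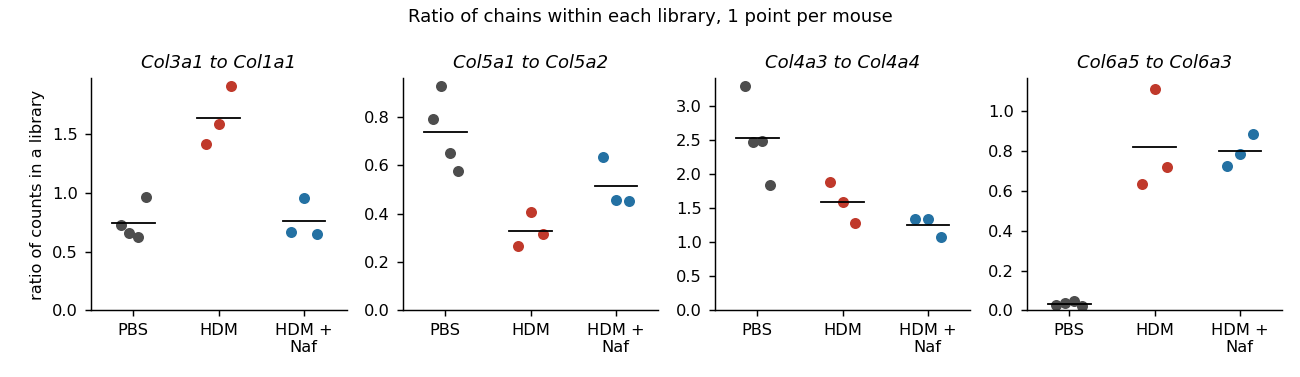
Ratio of the counts of 2 chains within a library for 4 pairs, with 1 point per mouse and the group mean as a line, each axis starting at 0. For Col3a1 to Col1a1 the 3 HDM libraries (1.42 to 1.91) lie above PBS and HDM + nafamostat, and for Col6a5 to Col6a3 both HDM groups lie far above PBS.

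The rest of the collagen pathway was read from lists of general knowledge. The counts of each list in HDM against PBS, and those of the cell type markers, stand beside 15.3% of all targets higher and 14.2% lower. Of 31 genes tested for collagen processing and cross-linking, 5 rose, a share near that of all targets, and 8 fell in HDM (median log2 fold change −0.19). When 1 library was left out, 4 to 5 rose and 6 to 8 fell. Lox, which cross-links fibrils, rose by 1.02 (adjusted p = 0.00177, edgeR). Of the genes that fell, Colgalt2 adds galactose to the chains (−1.86), Plod2 (−1.05) and P4ha2 (−0.97) hydroxylate lysine and proline, and Pcolce2 (−1.33) enhances procollagen cleavage, each at an adjusted p of at most 0.000186 with edgeR. Serpinh1, the chaperone of procollagen, was at −0.20 and did not pass. Of 18 partners of fibrils 4 rose and 4 fell, among them Tnxb (−2.27), Prelp (−1.20) and Ogn (−1.14) lower and Dpt (0.65) higher, and without HDM replicate 3 only 2 rose. When 1 library was left out, 3 to 6 of them fell.

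Basement membrane partners fell with the type IV chains, with 13 of 16 lower, none higher and a median of −0.99. Those with the smallest p were Pxdn (−1.89), the peroxidase that cross-links type IV collagen, Lama3 (−1.73) and Lamb2 (−1.45), laminin chains, and Npnt (−1.34), a ligand of integrin alpha 8. When 1 library was left out 11 to 15 partners were lower. Lama5, among the 13, was lost in 6 of these 7 fits. Collagen receptors had 8 lower (6 to 8 when 1 library was left out) and 2 higher of 11. Itga1, the integrin subunit that binds type IV collagen, fell by 1.74 on the log2 scale, while Lair1, an inhibitory receptor of leukocytes, was at 1.68 and the hyaluronan receptor Cd44 at 1.21. The list of collagen breakdown, which holds proteases and their inhibitors, had 9 higher and 1 lower of 12, with a median of 1.14. Timp1 (4.64), a protease inhibitor, and the cathepsins Ctsk (1.95) and Ctsb (1.63) rose, and Timp3 (−1.50), the inhibitor bound to matrix, fell. Without PBS replicate 4 there were 2 lower in that list, and without HDM replicate 1 there were 7 higher. Pepd, among the 9 higher, was lost in 6 of the 7 fits that left out 1 library. Of 16 genes of the TGF-beta pathway 3 rose, a share near that of all targets, and 8 fell (6 to 9 when 1 library was left out). Those that rose were Tgfbi (1.38), the ligand Tgfb1 (0.59) and its receptor Tgfbr1 (0.84), with Ltbp4 (−1.98), Tgfbr3 (−1.59) and Ctgf (−0.74) lower.

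Against HDM alone, HDM + nafamostat had 1 or 2 genes higher and none lower in each of the 6 lists, beside 0.951% of all targets higher and 1.97% lower. Both counts depended on single libraries. Without HDM + nafamostat replicate 3 no gene of these lists passed with edgeR. Without HDM + nafamostat replicate 2, 3 processing genes were higher, fibril partners had 2 higher and 2 lower, and 1 breakdown gene was lower. Without HDM + nafamostat replicate 1, 3 basement membrane partners were higher and 1 fibril partner was lower, and without HDM replicate 2, 1 breakdown gene was lower. Tnxb, the tenascin that spaces fibrils, was higher by 1.12 on the log2 scale (adjusted p = 0.0109, edgeR). It was lost only without HDM + nafamostat replicate 3 (adjusted p = 0.0833, edgeR). Itga1 was higher by 0.77 (adjusted p = 0.0179, edgeR) and was lost without HDM + nafamostat replicate 3 or HDM replicate 1. Tgfbr3 (0.74, adjusted p = 0.0195, edgeR) was lost without HDM + nafamostat replicate 3 or HDM replicate 1 or 3. The other 4 calls were each lost in at least 4 of the 6 fits that left out 1 library. They were Dag1, the dystroglycan that binds laminin (0.61, lost in 4), the cleavage enhancer Pcolce (0.60, lost in 5), Timp3 (0.76, lost in 5) and Npnt (0.56, lost in all 6), with adjusted p up to 0.205 in those fits (edgeR).

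**Figure D5:**
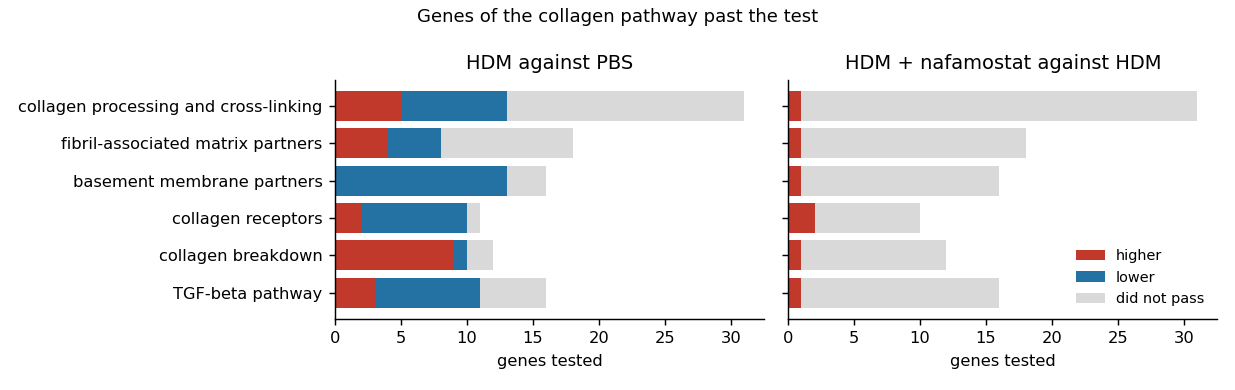
Number of genes of 6 collagen-related lists that rose (red), fell (blue) or did not pass (grey) an adjusted p under 0.05, for HDM against PBS on the left and HDM + nafamostat against HDM on the right. On the left 13 of 16 basement membrane partners are blue. There 9 of 12 genes of the breakdown list, which holds proteases and their inhibitors, are red. On the right at most 2 genes of a list are coloured.

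Markers of several lung cell types moved with HDM as well. Of 8 markers of alveolar type 1 cells, which make type IV collagen, 7 were lower and none higher, and their summed level was 6919 to 7914 CPM in PBS, 3804 to 4315 in HDM and 4934 to 5884 in HDM + nafamostat. Of 9 fibroblast markers 7 were lower and none higher (3713 to 5178, 1898 to 2591 and 2162 to 3759 CPM), and of 7 endothelial markers tested 4 were lower and none higher (3215 to 4435, 2243 to 2377 and 2740 to 3011 CPM). When 1 library was left out, 3 to 5 endothelial markers were lower. Smooth muscle markers gave 1 higher and 2 lower of 7 (979 to 1058, 993 to 1163 and 1069 to 1285 CPM). The 2 lower calls became 0 without PBS replicate 2, HDM replicate 1 or HDM replicate 3, and 1 without PBS replicate 1, PBS replicate 4 or HDM replicate 2. Liver markers, foreign to the lung, were higher in 7 of 9 (3 without HDM replicate 2), with low sums of 2.29 to 31.9 CPM in PBS, 31.8 to 177 in HDM and 1.91 to 102 in HDM + nafamostat. Leukocyte markers were higher, 4 of 5, with sums of 203 to 277 CPM in PBS, 553 to 804 in HDM and 421 to 686 in HDM + nafamostat. Against HDM, no marker of alveolar type 1 cells, smooth muscle or leukocytes passed with nafamostat. Of 9 fibroblast markers 1 was higher, of 7 endothelial markers 1 was higher (Tek) and 1 lower (Cldn5), and of 9 liver markers 1 was lower. All targets had 0.951% higher and 1.97% lower. Without HDM + nafamostat replicate 3 none of these passed. Without replicate 2, 4 alveolar type 1 and 4 fibroblast markers were higher and 7 liver markers lower. The part of these marker shifts in the collagen changes was not tested. In whole tissue fewer cells of a type, less RNA per cell and a larger share of RNA from other cells cannot be told apart.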

How the data were processed

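RNA of 10 mouse lungs was turned into libraries with an Ion AmpliSeq mouse transcriptome kit (1 amplicon for each gene) and sequenced on an Ion S5 XL, per the methods. The authors deposited raw read counts per target. The submitters' notes name the build mm10, and aligner and counter settings are not given in the sources used here. The methods speak of normalized values, but the files hold whole numbers whose totals differ between libraries. A total of 27 gene symbols altered by a spreadsheet were restored from the target name, none of them collagens.

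Groups came from the labels. Each pair of groups was fitted on its own libraries with edgeR 4.0.16 in R 4.3.3 (TMM scaling, quasi-likelihood F test, Benjamini-Hochberg adjustment over all targets with at least 30 counts in those libraries). The SE is the log2 fold change divided by the square root of F. CPM used TMM factors over the 10 libraries. Members and lists were chosen with earlier results of these data known. Values in every library are given for chains past an adjusted p of 0.05 in HDM against PBS or HDM + nafamostat against HDM, and for the main chains of types I, III, IV and VI, and of each list up to 4 genes with the smallest p. Lox, Serpinh1, Pcolce, Tgfb1, Tgfbr1 and the 10 chain ratios were named after their values were seen. Alternatives were DESeq2 1.42.0, other scaling and filters, a fit of all 3 groups, a replicate block and leaving out each library, which for the lists was chosen after seeing the data. No libraries were identical, and PCR reads carry no molecular identifiers, so count limits cover counting error only. With 1 library per mouse, p-values set the difference between groups against the spread between mice. That spread may include the separate experiments, which the labels do not assign. Promoter windows and gene positions are from RefSeq on GRCm38.p6, the assembly of mm10.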

Additional observations from a re-analysis of the deposited data

Results flagged for a closer look

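Among the 33 chains in the 4 PBS libraries, 1 value stood apart from its group by the Dixon criterion. Col6a6, a type VI chain, was at 3.15 CPM in PBS replicate 4, highest of the group, and the gap to the next library was 0.877 of the range, above the 95% critical value for 4 samples. The value rests on 20 counts, against 6 to 9 in the other PBS libraries. Chance alone gives such a value in about 1 of 20 groups, and 33 were examined. The same library was the lowest of its group for 24 of the 33 chains.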

How the results depend on the processing

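With all libraries kept, 324 of 356 results for the named chains kept their direction and their side of the threshold, 6 lost a call, 12 gained one and 14 changed direction. In HDM + nafamostat against HDM, where 0 chains passed, chains higher were 1 with library totals only, 3 with DESeq2, 3 with no filter on low counts and 2 with edgeR's expression filter, and 1 was lower with no filter. The cause was not tested. When each library was left out in turn, chains higher ranged from 0 to 4 and lower from 0 to 1 in that comparison, from 5 to 6 and from 7 to 11 in HDM against PBS, and from 2 to 8 and from 4 to 7 in HDM + nafamostat against PBS. Of 340 such results for named chains, 282 kept both, 24 lost a call, 7 gained one and 27 changed direction. No value that changed direction passed the threshold in either fit, and all were at most 0.17 in size (log2 fold change) with all libraries and the settings of the report. In HDM against PBS, Col1a1 turned to −0.009 with library totals only and −0.076 with the replicate block. In HDM + nafamostat against HDM, Col4a3 and Col6a3 turned to −0.003 and −0.001 with both median-of-ratios factors and DESeq2 and to −0.008 and −0.007 with the expression filter, and Col4a3 to −0.022 with the block. Col6a5 turned to 0.025 with library totals and 0.008 with the block, and Col13a1 to 0.048 with library totals, 0.003 with no filter and 0.003 with the block. Without single libraries the range was −0.075 to 0.189 for Col1a1, −0.008 to 0.194 for Col1a2 and −0.154 to 0.046 for Col6a3 in HDM against PBS, and −0.117 to 0.063 for Col6a3 in HDM + nafamostat against PBS. In HDM + nafamostat against HDM it was −0.466 to 0.081 for Col4a2, −0.163 to 0.149 for Col4a3, −0.217 to 0.152 for Col5a2, −0.075 to 0.126 for Col6a3, −0.225 to 0.195 for Col6a5 and −0.115 to 0.073 for Col13a1. The call of Col6a1 in HDM against PBS was also lost with library totals only (adjusted p = 0.115, edgeR) and with all 3 groups in one fit (adjusted p = 0.0517, edgeR). Over all targets in HDM + nafamostat against HDM, 137 rose and 284 fell, against 362 and 515 with DESeq2, 522 and 749 with no filter, and 219 and 406 with the expression filter, while without 1 library the counts ran from 1 to 259 and from 14 to 453. In HDM against PBS they ran from 1651 to 2521 and from 1434 to 2347 without 1 library. In HDM + nafamostat against PBS they ran from 775 to 1450 and from 421 to 1059. Leaving out each library for the gene lists was chosen after seeing the data. Its results are given beside list counts that it changed, and not for every list and library.

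Libraries of different groups with the same replicate number showed no sign of deviating together (correlations of −0.17 to 0.09). Libraries with different numbers gave −0.229 to 0.233. With 3 or 4 libraries a group this cannot exclude a pairing, and the main fits did not use the number. With the number as a block, HDM against PBS gave 5 chains higher and 10 lower (2342 and 2161 of all targets). HDM + nafamostat against HDM gave 0 and 0 (10 and 75 of all targets), and HDM + nafamostat against PBS 5 and 7 (1566 and 1112). The block ended the calls of Col6a1 in the first comparison (log2 fold change 0.36, adjusted p = 0.091, edgeR) and Col5a2 in the last (0.48, adjusted p = 0.0501, edgeR), and added lower calls of Col5a1 and Col14a1 in the first and Col4a1 and Col4a5 in the last. With 3 or 4 mice a group, chains under about 1 CPM were limited by depth.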
